A study of Mus musculus with 12 samples.

Results

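Neuronal and synaptic cell adhesion genes were followed through 12 mouse neuroendocrine thyroid carcinomas. The set holds 34 of the 23284 genes in the count tables, taken by symbol from a list of adhesion families: the NCAM and L1 families, neurexins and neuroligins, contactins and their associated proteins, SynCAMs, IgLONs, sidekicks and Dscam, cadherins and protocadherins, and leucine-rich repeat synaptic organisers. All 34 symbols were found in the tables, and 30 passed the filter on low counts. The design asks which genes depend on Crebbp, which encodes a coactivator that acetylates histones. The tumours are primary carcinomas of a genetically engineered mouse. Of the 12, 5 carried the genotype label Rb1/Trp53/Crebbp (RPC-labelled below) and 7 the label Rb1/Trp53 (RP-labelled), so the labels name Rb1 and Trp53 in both groups. The sources used here give neither the alleles, nor the driver of recombination, nor the age of the mice.

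Adhesion proteins of the neuronal surface let growing axons recognise their targets and hold the sending and receiving sides of a synapse together. Neurexins of the sending side bind neuroligins and leucine-rich repeat proteins of the receiving side across the cleft, while immunoglobulin-domain proteins such as NCAM and L1CAM bind copies of themselves or of each other. Thyroid C cells are neuroendocrine cells that secrete calcitonin, and neuroendocrine tumours express many neuronal genes, among them Ncam1, whose product is CD56, a diagnostic marker of such tumours.

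The libraries held 9.14 M to 20.5 M gene counts among RPC-labelled tumours and 9.11 M to 57.3 M among RP-labelled tumours, and levels are in CPM, where 1 CPM is 1 count in each 1 M of the scaled library. The level of 3 counts, taken as the floor, was 0.0502 to 0.312 CPM. Calca, the calcitonin gene of C cells, was at 19994 to 119488 CPM in RPC-labelled and 80584 to 215747 CPM in RP-labelled tumours, and was not called (edgeR adjusted p = 0.103). Of the 9 C cell markers 6 had log2 fold changes below 0 and none was called lower, while Gfra1, a co-receptor of Ret, was called higher without overlap, at 7.69 to 20.4 CPM in RPC-labelled and 1.85 to 5.91 CPM in RP-labelled tumours (5.34-fold; edgeR adjusted p = 0.00181). Crebbp, the targeted gene, stood at a mean of 53.9 ± 4.19 CPM over 5 RPC-labelled and 54.6 ± 20.04 CPM over 7 RP-labelled tumours (± SD) (log2 fold change -0.02 ± 0.20 SE; edgeR adjusted p = 0.957). Rb1 was not called (log2 fold change 0.37 ± 0.17 SE; edgeR adjusted p = 0.137). Trp53 was at 16.4, 11.8, 15.8, 22.8 and 13.8 CPM in the RPC-labelled tumours, against 23.2, 28.1 and 35.8 CPM (lowest, median and highest) in the RP-labelled tumours. It was called lower without overlap of the groups (log2 fold change -0.84 ± 0.17 SE; edgeR adjusted p = 0.00918), so the groups were not alike in its transcript level. A total over a whole gene cannot reveal a deleted exon, so these values check neither the labels nor the protein, and directions are those between the libraries as labelled.

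Markers of other cells also differed between the groups. All 9 adipocyte markers were called lower, and their summed level was 54.1 to 127.5 CPM in RPC-labelled tumours, against 67.0 to 1887 CPM in RP-labelled tumours, where replicates 2, 4, 6 and 7 held the 4 highest sums. Of 9 tested thyroid follicular markers 2 were called lower, with sums of 55.7 to 5752 CPM in RPC-labelled and 1639 to 9295 CPM in RP-labelled tumours. The log2 fold change was below 0 for 8 of the 9, with a median of -1.89 over the list, and 8 had an unadjusted edgeR p under 0.05. Of 5 tested peripheral neuron markers, Prph and Stmn2 were called higher, while Nefh, Rbfox3 and Isl1 were not called. The neuron list summed to 182 to 306 CPM in RPC-labelled and 145 to 216 CPM in RP-labelled tumours. Most of each sum was Isl1, at 113 to 195 CPM in RPC-labelled and 125 to 172 CPM in RP-labelled tumours. Dbh of sympathetic neurons reached at most 0.0916 CPM in RPC-labelled and 0.317 CPM in RP-labelled tumours. Schwann cells express several of the adhesion genes too. The Schwann and glial markers summed to 105.1 to 124 CPM in RPC-labelled and 118 to 166 CPM in RP-labelled tumours. Mbp, which was not called, made up most of each sum, at 62.6 to 82.8 CPM in RPC-labelled and 68.6 to 123 CPM in RP-labelled tumours. Sox10 reached at most 0.444 CPM in RPC-labelled and 0.810 CPM in RP-labelled tumours. Of the fibroblast, endothelial and immune marker lists 1 gene each was called lower, and none higher. No gene of the skeletal muscle and parathyroid marker lists was called. The part of these cells in the results below was not tested beyond the covariate fits given. In bulk tumours fewer cells of a type and less RNA per cell cannot be told apart.

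Of the 34 adhesion genes, 12 were called higher in RPC-labelled tumours and 0 lower, where 9.64% of the 14989 genes tested were called higher, 8.61% lower and 18.3% in either direction (edgeR quasi-likelihood test, Benjamini-Hochberg adjusted p under 0.05). DESeq2 also called 0 lower. Of the 30 tested, 17 had an unadjusted edgeR p under 0.05, none of them with a fall. Over all genes, 5336 of the 14989 tested had such a p in either direction. The 12 were Ncam1, L1cam, Nrxn3, Nlgn1, Nlgn3, Cntn4, Cadm1, Sdk1, Dscam, Pcdh17, Slitrk1 and Slitrk6. The log2 fold change was above 0 for 26 of the 30 tested, against 48.5% of all genes tested. Its median was 0.76, against a median of -0.02 over all genes tested. For 5 genes, Ncam1, Nlgn3, Pcdh17, Slitrk1 and Slitrk6, every RPC-labelled tumour lay above every RP-labelled tumour, which held for 3.62% of genes tested, and for 0 of the 34 every RPC-labelled tumour lay below, which held for 2.64%. Some called genes share exon bases with another annotated gene in GENCODE M21, among them Nlgn3 with Gm21986 on the same strand (3823 bases), L1cam with Arhgap4 (100 bases) and Nlgn1 and Ncam1 with antisense genes (1229 and 417 bases), and such reads cannot be assigned with certainty.

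**Figure D1:**
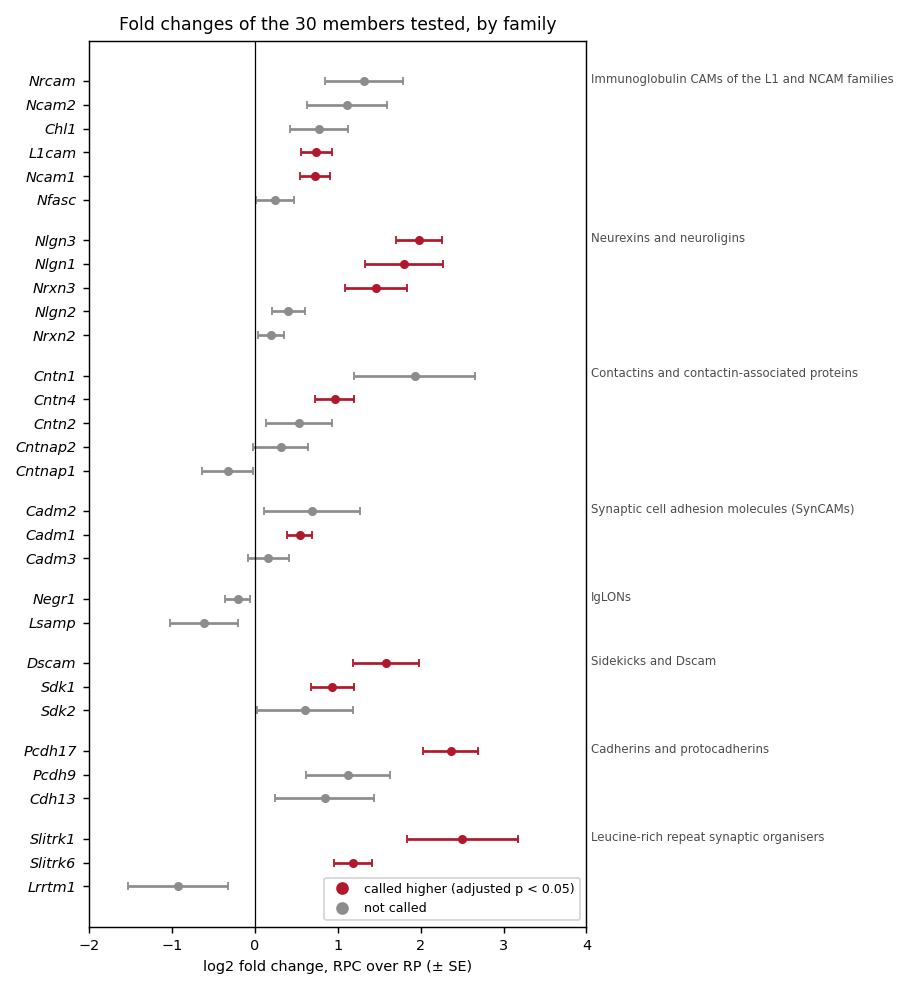
Log2 fold changes (x axis, RPC over RP, with SE bars) of the 30 adhesion genes tested, grouped by family down the page. Red points mark the 12 genes called higher, from Cadm1 at 0.54 to Slitrk1 at 2.50, and grey points were not called, 4 of which lie below 0.

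The levels of the genes differed widely. Divided by exon length, the most abundant were Ncam1, at a median of 37.3 CPM per kb in RPC-labelled and 24.0 CPM per kb in RP-labelled tumours, and Cadm1, at 32.9 CPM per kb in RPC-labelled and 21.6 CPM per kb in RP-labelled tumours. Nlgn2 followed with 14.8 CPM per kb in RPC-labelled and 10.3 CPM per kb in RP-labelled tumours, and Nfasc with 13.7 CPM per kb in RPC-labelled and 8.95 CPM per kb in RP-labelled tumours. Cdh10, a type II cadherin of neurons, gave 9 counts in the 12 tumours together, with none in 7 of them. Opcml, Ntm and Lrrtm2 were the other genes left out by the filter, each with a median under 1 CPM in both groups.

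Among the NCAM and L1 families, Ncam1 and L1cam were called higher and the other 4 genes were not called, all with log2 fold changes above 0. Ncam1 was at 353, 371, 303, 323 and 319 CPM in the RPC-labelled tumours, against a low of 119.9, a median of 208 and a high of 278 CPM in the RP-labelled tumours. The groups did not overlap, and the difference was 1.65-fold (log2 fold change 0.72 ± 0.18 SE; edgeR adjusted p = 0.0217). L1cam, which encodes the founding member of an axonal adhesion family, was at 61.6, 56.5, 45.6, 34.5 and 73.6 CPM in the RPC-labelled tumours, against 24.4, 33.1 and 41.8 CPM (lowest, median and highest) in the RP-labelled tumours. Replicate 4 of the RPC-labelled group lay inside the RP-labelled range, and the difference was 1.67-fold (log2 fold change 0.74 ± 0.19 SE; edgeR adjusted p = 0.0207). Without RPC-labelled replicate 1 or 2 neither gene was called, and L1cam was not called without RPC-labelled replicate 5 either (adjusted p up to 0.0611 for Ncam1 and 0.0550 for L1cam).

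The uncalled genes of these families overlapped between the groups. Nrcam, an L1-family protein of axon initial segments and nodes of Ranvier, differed by 1.32 ± 0.47 on the log2 scale (SE; edgeR adjusted p = 0.0655), with means of 7.64 ± 3.29 CPM over 5 RPC-labelled and 3.07 ± 2.10 CPM over 7 RP-labelled tumours (± SD), and DESeq2 called it (adjusted p = 0.0276). Chl1, the close homologue of L1, spanned 41.2 to 86.2 CPM in RPC-labelled and 14.7 to 70.4 CPM in RP-labelled tumours (adjusted p = 0.138). Ncam2, the paralogue of Ncam1, was low, at 0.945 to 2.11 CPM in RPC-labelled and 0 to 1.21 CPM in RP-labelled tumours (adjusted p = 0.116). Nfasc, which encodes neurofascin of the node and initial segment, was abundant in both groups, at a mean of 198 ± 23.7 CPM over 5 RPC-labelled and 168 ± 66.6 CPM over 7 RP-labelled tumours (± SD) (adjusted p = 0.477).

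Neurexins and neuroligins gave 3 called genes of 5. Nlgn3, a neuroligin found at both excitatory and inhibitory synapses, had the smallest p of the whole set. It was at 22.6, 24.3, 18.2, 17.9 and 25.5 CPM in the RPC-labelled tumours, against 2.89, 5.72 and 8.59 CPM (lowest, median and highest) in the RP-labelled tumours. The lowest RPC-labelled tumour lay well above the highest RP-labelled one, and the difference was 3.95-fold (log2 fold change 1.98 ± 0.28 SE; edgeR adjusted p = 0.00204). It remained called without any single tumour (log2 fold change 1.87 to 2.12).

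Nlgn1, the neuroligin of excitatory synapses, was at 10.3, 18.6, 9.15, 9.41 and 20.3 CPM in the RPC-labelled tumours, against 1.25, 2.60 and 10.9 CPM (lowest, median and highest) in the RP-labelled tumours. The highest RP-labelled value came from replicate 5, and the next RP-labelled tumour was at 4.31 CPM. The difference was 3.48-fold (log2 fold change 1.8 ± 0.47 SE; edgeR adjusted p = 0.0231) and was not called without RPC-labelled replicate 2 or 5. Nlgn2, the neuroligin of inhibitory synapses, was not called, at a mean of 84.5 ± 15.2 CPM over 5 RPC-labelled and 64.1 ± 19.4 CPM over 7 RP-labelled tumours (± SD) (log2 fold change 0.40 ± 0.20 SE; edgeR adjusted p = 0.162).

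Nrxn3, one of the presynaptic partners of neuroligins, was at 1.83, 4.40, 3.54, 3.55 and 4.49 CPM in the RPC-labelled tumours, against 0.551, 1.10 and 2.91 CPM (lowest, median and highest) in the RP-labelled tumours. RPC-labelled replicate 1 and RP-labelled replicate 3 made the overlap, the difference was 2.75-fold (log2 fold change 1.46 ± 0.37 SE; edgeR adjusted p = 0.0217), and the call was lost without RPC-labelled replicate 2. Nrxn2 was at a mean of 78.6 ± 14.2 CPM over 5 RPC-labelled and 68.9 ± 15.5 CPM over 7 RP-labelled tumours (± SD) and was not called (log2 fold change 0.19 ± 0.16 SE; adjusted p = 0.414). Whether the changes of the paralogues differ from each other was not tested.

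Contactins are immunoglobulin-domain proteins anchored to the outer membrane by a lipid, and 1 of the 5 genes of the contactin families was called. Cntn4, an axon guidance contactin, was at 6.81, 12.7, 12.4, 7.81 and 6.15 CPM in the RPC-labelled tumours, against 2.92, 4.27 and 6.33 CPM (lowest, median and highest) in the RP-labelled tumours. RPC-labelled replicate 5 alone lay inside the RP-labelled range. The difference was 1.95-fold (log2 fold change 0.96 ± 0.24 SE; edgeR adjusted p = 0.0215), and without RPC-labelled replicate 2 or 3 it was not called.

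Cntn1, which pairs with contactin-associated proteins at the junctions beside the nodes of myelinated axons, had a large but uncalled difference. It was at 15.6, 18.5, 17.9, 14.3 and 54.4 CPM in the RPC-labelled tumours, against 0.944, 3.25 and 26.3 CPM (lowest, median and highest) in the RP-labelled tumours. RP-labelled replicate 5 held the 26.3 CPM, and the next RP-labelled tumour was at 5.20 CPM. The log2 fold change was 1.93 ± 0.73 (SE; edgeR adjusted p = 0.0797) and became 3.10 without RP-labelled replicate 5 (adjusted p = 0.00376), and DESeq2 called it (adjusted p = 2.63e-05) after replacing the 1573 counts of that tumour, as an outlier, by 610. Cntn2, an axonal contactin, and the associated proteins Cntnap1 and Cntnap2 overlapped between the groups (adjusted p = 0.364, 0.468 and 0.528). Cntnap1, of the junctions beside the node, differed by -0.33 ± 0.31 on the log2 scale (SE), with means of 27.3 ± 12.8 CPM over 5 RPC-labelled and 34.4 ± 12.8 CPM over 7 RP-labelled tumours (± SD).

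SynCAMs are immunoglobulin-domain proteins that bind each other across the cleft. Cadm1 was at 385, 219, 335, 383 and 343 CPM in the RPC-labelled tumours, against 184, 226 and 279 CPM (lowest, median and highest) in the RP-labelled tumours. RPC-labelled replicate 2 lay below the RP-labelled median, and the other 4 lay above every RP-labelled tumour. The difference of 1.45-fold was the smallest called in the set (log2 fold change 0.54 ± 0.15 SE; edgeR adjusted p = 0.0291), and it was called in 4 of the 12 fits that left out a tumour. Cadm2 stood between 1.51 and 1.96 CPM in the RPC-labelled tumours, while in the RP-labelled tumours replicate 5 was at 3.77 CPM and the other 6 between 0.104 and 1.08 CPM (log2 fold change 0.69 ± 0.58 SE; edgeR adjusted p = 0.409). Without RP-labelled replicate 5 its log2 fold change was 1.56 (adjusted p = 0.0156), and DESeq2 called it (adjusted p = 0.00644) after replacing the 225 counts of that tumour by 75. Cadm3 was not called, at a mean of 10.1 ± 2.56 CPM over 5 RPC-labelled and 9.07 ± 2.81 CPM over 7 RP-labelled tumours (± SD) (adjusted p = 0.674).

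IgLONs, lipid-anchored immunoglobulin proteins of the neuronal surface, gave no call by edgeR, which tested 2 of the 4. Negr1 was at a mean of 33.5 ± 3.93 CPM over 5 RPC-labelled and 38.8 ± 8.08 CPM over 7 RP-labelled tumours (± SD) (log2 fold change -0.21 ± 0.15 SE; edgeR adjusted p = 0.321). Lsamp was at a mean of 4.07 ± 1.8 CPM over 5 RPC-labelled and 6.26 ± 2.96 CPM over 7 RP-labelled tumours (± SD) (log2 fold change -0.62 ± 0.41 SE; adjusted p = 0.291). Each of the 5 RPC-labelled values of Negr1 and Lsamp lay below the RP-labelled median of its gene. Ntm was at 0.444 to 0.941 CPM in RPC-labelled tumours, while in the RP-labelled group replicate 5 was at 1.36 CPM and the other 6 between 0.0634 and 0.174 CPM. Those 6 values come from 1 to 3 counts each. DESeq2, which tested Ntm, called it higher (adjusted p = 0.0076) after replacing the 81 counts of RP-labelled replicate 5 by 22.

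Sidekicks and Dscam, which direct layer-specific connections in the retina, gave 2 called genes of 3. Sdk1 was at 33.4, 35.6, 28.4, 42.5 and 26.2 CPM in the RPC-labelled tumours, against 10.9, 14.1 and 35.4 CPM (lowest, median and highest) in the RP-labelled tumours. RP-labelled replicate 1 alone lay inside the RPC-labelled range, and the next was at 18.4 CPM. The difference was 1.91-fold (log2 fold change 0.93 ± 0.26 SE; edgeR adjusted p = 0.0302) and was called in 5 of the 12 fits that left out a tumour.

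Dscam, a self-avoidance receptor, was low in every tumour, at 1.26, 2.38, 3.11, 1.60 and 4.63 CPM in the RPC-labelled tumours, against 0.312, 0.708 and 1.27 CPM (lowest, median and highest) in the RP-labelled tumours. RPC-labelled replicate 1 made the overlap. The difference was 2.99-fold (log2 fold change 1.58 ± 0.40 SE; edgeR adjusted p = 0.0215), and it was not called without RPC-labelled replicate 5 (adjusted p = 0.0559). Sdk2 ranged from 12.8 to 40.1 CPM in RPC-labelled and from 5.09 to 38.2 CPM in RP-labelled tumours (adjusted p = 0.477).

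Of the cadherin group, Pcdh17, a protocadherin of axon bundling and presynaptic assembly, was called. It was at 3.78, 5.32, 3.07, 6.39 and 10.2 CPM in the RPC-labelled tumours, against 0.650, 1.04 and 1.76 CPM (lowest, median and highest) in the RP-labelled tumours. The groups did not overlap, and the difference was 5.12-fold (log2 fold change 2.36 ± 0.33 SE; edgeR adjusted p = 0.00224), called without any single tumour (log2 fold change 2.03 to 2.52). Pcdh9, a related protocadherin, differed by 1.12 ± 0.51 on the log2 scale (SE; adjusted p = 0.136) and was called without RP-labelled replicate 3, which held 9.47 CPM, while no other RP-labelled tumour passed 2.92 CPM (log2 fold change 1.68; adjusted p = 0.0140). The same tumour held the highest level of Cdh13, a lipid-anchored cadherin also made by vascular cells, at 48.5 CPM, with 11.3 to 35.7 CPM in RPC-labelled tumours and up to 13.9 CPM among the remaining RP-labelled tumours. The log2 fold change of Cdh13 was 1.63 without that tumour (adjusted p = 0.0176) and 0.84 ± 0.60 with all tumours (SE; adjusted p = 0.330). RP-labelled replicate 3 also had the highest summed endothelial, fibroblast and immune marker levels of all tumours, at 144, 3289 and 732 CPM. The part of those cells in the result was not tested.

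Leucine-rich repeat organisers of the postsynaptic side gave 2 called genes of the 3 tested, both of the Slitrk family, and Lrrtm2 was not tested by edgeR. Slitrk6, which is needed in the inner ear and eye, was at 19.9, 22.6, 20.7, 13.7 and 13.0 CPM in the RPC-labelled tumours, against 4.16, 8.20 and 11.4 CPM (lowest, median and highest) in the RP-labelled tumours. The groups did not overlap, and the difference was 2.27-fold (log2 fold change 1.18 ± 0.23 SE; edgeR adjusted p = 0.00807), called without any single tumour (log2 fold change 1.07 to 1.29).

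Slitrk1, an organiser of excitatory synapses, was at 1.70, 3.67, 1.84, 1.86 and 2.39 CPM in the RPC-labelled tumours, against 0, 0.315 and 1.14 CPM (lowest, median and highest) in the RP-labelled tumours. RP-labelled replicates 3 and 4 had 0 counts. The groups did not overlap, and the fitted log2 fold change was 2.50 ± 0.67 (SE; edgeR adjusted p = 0.0259), the largest of the set, but its size rests on RP-labelled values near the level of 3 counts. It was not called without RP-labelled replicate 2 or RPC-labelled replicate 2. Lrrtm1, a neurexin ligand, had the lowest log2 fold change of the set, -0.93 ± 0.60 (SE; adjusted p = 0.282), with 0.550 to 2.36 CPM in RPC-labelled and 0.208 to 4.87 CPM in RP-labelled tumours.

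**Figure D2:**
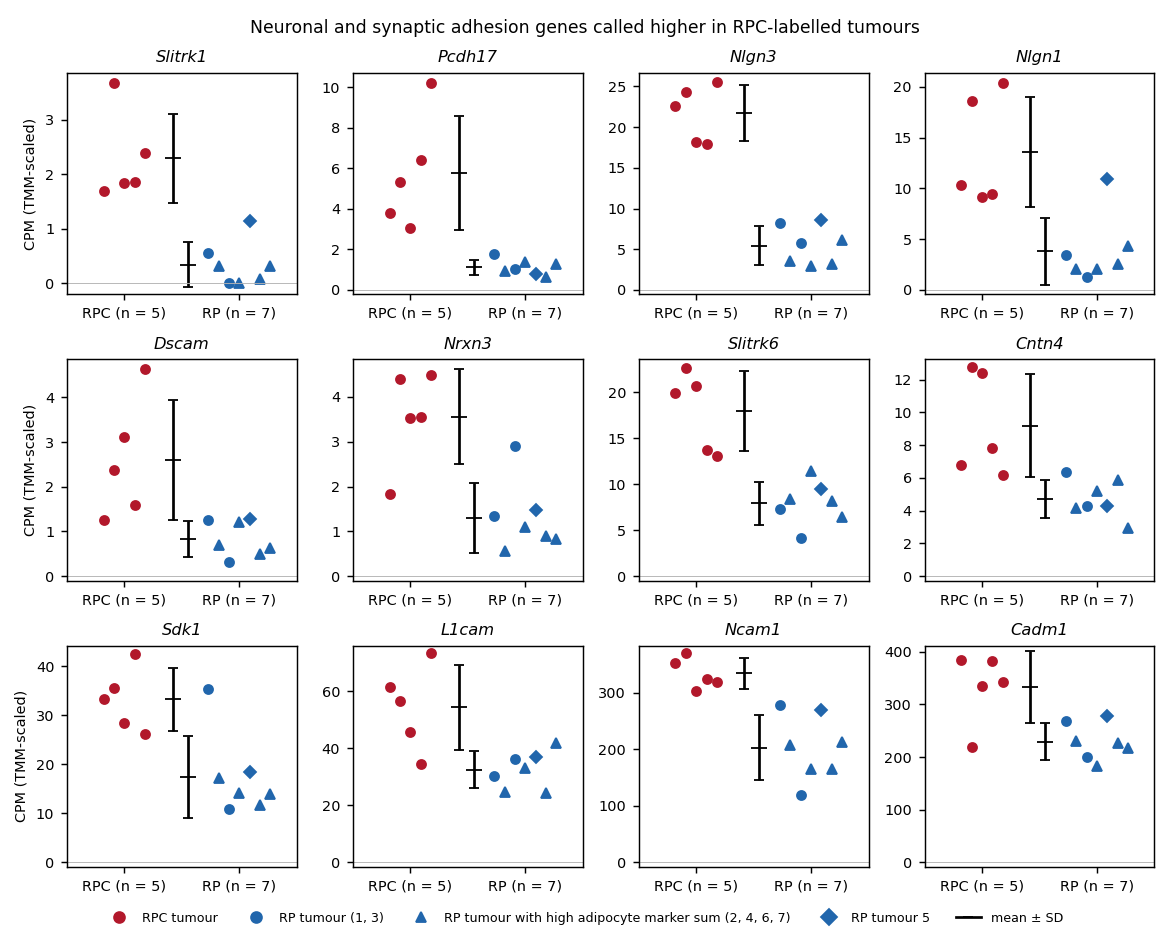
CPM (y axis, linear) of the 12 genes called higher, with 1 point per tumour, RPC tumours in red on the left and RP tumours in blue on the right, and the mean ± SD beside each group. Triangles are RP replicates 2, 4, 6 and 7, which had the highest adipocyte marker sums, and the diamond is RP replicate 5, which reaches 10.9 CPM for Nlgn1 while the other RP tumours stay at or under 4.31 CPM.

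Pcdh17, Slitrk1, Slitrk6 and the uncalled Pcdh9 lie on chromosome 14, as does Rb1, which the labels name in both groups. The share of all genes on that chromosome was not counted, so the 3 called genes there have no background beside them. The promoters of Pcdh17, Slitrk1 and Slitrk6 are shown because these genes share a chromosome and were called without overlap of the groups. That choice was made after their values were seen. The 250 bases before the transcription start, from RefSeq on GRCm38.p6, are given 5′ to 3′ on the gene's strand, with CpG dinucleotides in capitals.
Pcdh17, chr14:84443313-84443562, plus strand: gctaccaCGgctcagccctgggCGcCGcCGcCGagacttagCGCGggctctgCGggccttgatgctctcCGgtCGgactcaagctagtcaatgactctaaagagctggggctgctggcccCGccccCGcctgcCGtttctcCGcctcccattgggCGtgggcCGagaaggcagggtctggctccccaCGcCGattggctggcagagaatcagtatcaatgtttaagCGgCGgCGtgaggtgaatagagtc
Slitrk1, chr14:108914240-108914489, minus strand: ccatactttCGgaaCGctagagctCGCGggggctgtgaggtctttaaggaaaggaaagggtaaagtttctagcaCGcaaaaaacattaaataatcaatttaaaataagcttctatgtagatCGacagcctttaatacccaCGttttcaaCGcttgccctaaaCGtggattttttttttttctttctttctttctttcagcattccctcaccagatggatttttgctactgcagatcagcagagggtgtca
Slitrk6, chr14:110755150-110755399, minus strand: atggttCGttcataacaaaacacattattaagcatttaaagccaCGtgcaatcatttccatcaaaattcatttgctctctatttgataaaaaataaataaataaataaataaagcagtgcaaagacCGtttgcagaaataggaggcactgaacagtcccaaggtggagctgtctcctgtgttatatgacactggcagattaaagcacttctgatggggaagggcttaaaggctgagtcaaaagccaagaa

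The 3 promoters were unlike in base composition. Pcdh17 held 21 CpG dinucleotides and 64.8% G or C, Slitrk1 held 9 and 40.4%, and Slitrk6 held 3 and 37.2%, where the median of 32851 promoters of this length was 6 CpG and 52.4%. Promoters were found for 27 of the 34 genes and for 9 of the 12 called ones. The cAMP response element TGACGTCA was in none of the 27, and in 1.77% of 27025 genes. Its half-site, TGACG on either strand, was in 4 of 27 genes (14.8%, against 19.8% of all genes), namely Cadm3, Cntn1, Lsamp and Pcdh9, and in 0 of the 9 called. The E-box CAGCTG, which reads the same on both strands, was in Cntn4 and Nlgn2 (7.41%, against 14.7% of all genes). A match is a run of letters and does not show binding, nor does its absence show that none occurs.

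The adhesion genes did not separate the tumours of a group evenly. Summed over the 34 genes, the level was 1322 to 1625 CPM in RPC-labelled tumours and 774 to 1359 CPM in RP-labelled tumours, and the highest RP-labelled sum, in replicate 1, lay within the RPC-labelled range. Ncam1, Cadm1 and Nfasc made up most of each sum, so it says little of the other genes. The uncalled Nfasc was at 257 CPM in RP-labelled replicate 1. RPC-labelled replicate 5 held the highest level of all 12 tumours for 10 of the 30 tested genes, and replicate 2 for 7. The lowest level was in RP-labelled replicate 3 for 10 of the 30. RPC-labelled replicates 5 and 2 had the lowest C cell marker sums of the 12 tumours, at 23487 and 30631 CPM. Their follicular marker sums were the lowest too, at 376 and 55.7 CPM. Replicate 5 also had the highest skeletal muscle marker sum, 3508 CPM, with 3354 CPM in RP-labelled replicate 6. The part of these differences in the adhesion gene levels was not tested. Of the 12 called genes, RP-labelled replicates 1 and 5 reached the RPC-labelled range for 4 each and replicate 3 for 2, while replicates 2, 6 and 7 did so for 1 each and replicate 4 for none.

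RP-labelled replicate 5, the deepest library, stood apart for a few genes. It exceeded every other RP-labelled tumour by more than 2-fold for 5 of the 34 genes, Nlgn1, Cntn1, Cadm2, Ntm and Slitrk1. For Cntn1, Cadm2, Nlgn1 and Ntm it was above the RPC-labelled median, while for Pcdh17 (0.787 CPM) and Slitrk6 (9.51 CPM) it was below every RPC-labelled tumour. With this library thinned to 14.2 M counts, 12 genes were called, where 9.66% of all genes were called higher. Without it, 14 were called, where 9.43% of all genes were, the additions being Cntn1 and Cadm2.

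**Figure D3:**
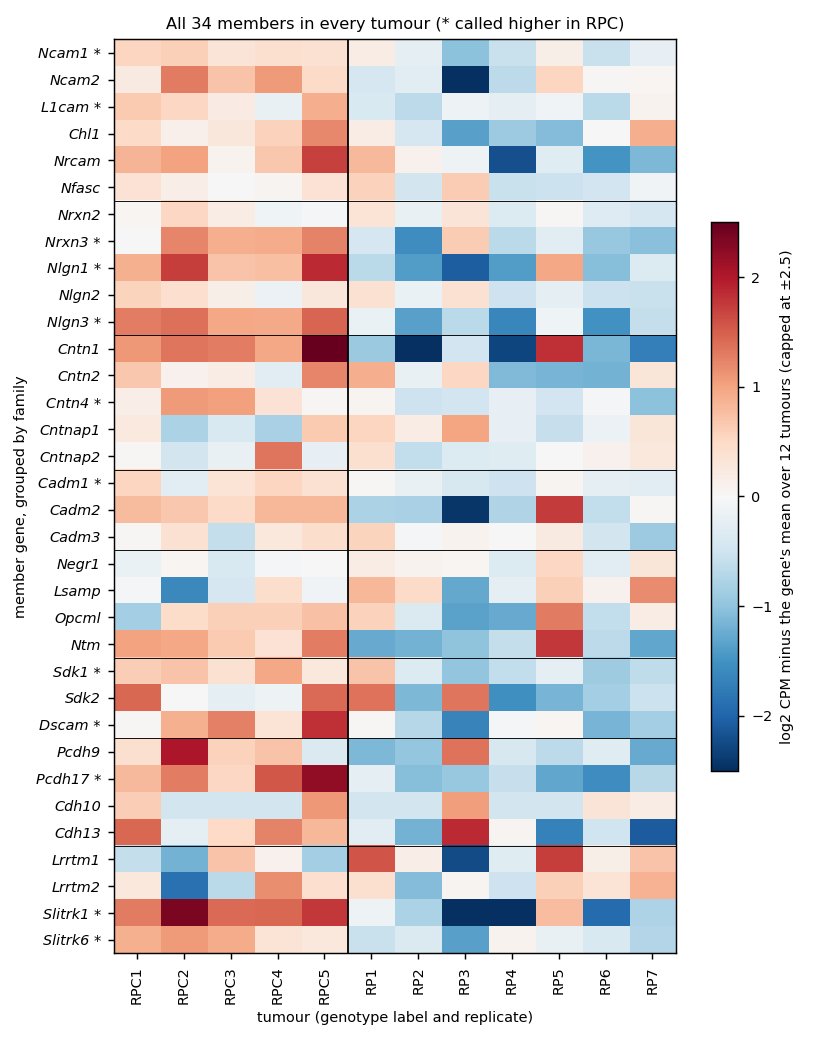
Log2 CPM of all 34 genes (rows, by family) in the 12 tumours (columns, RPC tumours left of the line and RP tumours right of it), shown as the difference from each gene's mean. Red cells are above and blue cells below that mean. RP5 is red for Cntn1, Cadm2, Ntm and Nlgn1 among mostly blue RP cells, and RP3 is red for Pcdh9 and Cdh13.

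The number of calls changed with the tumours and covariates in the fit. RP-labelled replicates 2, 4, 6 and 7, which held the 4 highest adipocyte marker sums, were left out together. No other 4 tumours were left out in that way, so the smaller group and its adipocyte transcripts cannot be told apart. Without RP-labelled replicates 2, 4, 6 and 7, which leaves 5 tumours against 3, Nlgn3 alone was called (log2 fold change 1.51 ± 0.21 SE; edgeR adjusted p = 0.0344), and 0.153% of genes tested were called higher. The 12 genes all kept a log2 fold change above 0, with a median of 1.12 against 1.32 with all tumours, and Pcdh17 (2.27 ± 0.50 SE; adjusted p = 0.106), Slitrk6 (1.34 ± 0.31 SE; adjusted p = 0.114) and Dscam (1.39 ± 0.57 SE; adjusted p = 0.257) were among those not called. With the adipocyte marker score as a covariate Nlgn3 was again the 1 gene called (log2 fold change 1.35 ± 0.24 SE; adjusted p = 0.0369), where 0.334% of genes were called higher. With the follicular score in that place 0 of the 34 were called by edgeR, and 0.0133% of genes were called higher. In that fit 9 members had an unadjusted p under 0.05, as had 1634 of the 14989 genes tested. The median log2 fold change of the 12 genes was 1.15 in that fit and 1.07 with the adipocyte score. The follicular score was -1.664 to -0.03 in RPC-labelled and -0.295 to 0.954 in RP-labelled tumours. The adipocyte score was -1.046 to -0.413 in RPC-labelled and -0.7 to 1.548 in RP-labelled tumours. Both scores thus went largely with the genotype label, and these fits cannot tell score and label apart. With the Schwann and glial score as a covariate 16 were called, where 14.8% of genes were called higher. Without RPC-labelled replicate 2, 5 of the 34 were called, where 3.67% of genes were called higher, and without RP-labelled replicate 3, 14 were, where 12% of genes were. The 12 genes kept a log2 fold change above 0 in these fits. DESeq2 called 16 of the 34, 3 of them (Cntn1, Cadm2 and Ntm) with a replaced count, where 12% of genes were called higher, and limma voom 14, where 10.5% were. With library size alone as the scale 14 were called (18% of genes), and with a minimum count of 50, 8 were (9.81% of genes). The count was 12 with RLE scaling (9.3% of genes), upper-quartile scaling (8.84%), no filter (6.3%) and Calca left out (8.8%). With replicates 1 to 5 of each group 4 were called with a replicate block (1.64% of genes) and 5 without (3.23%).

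**Figure D4:**
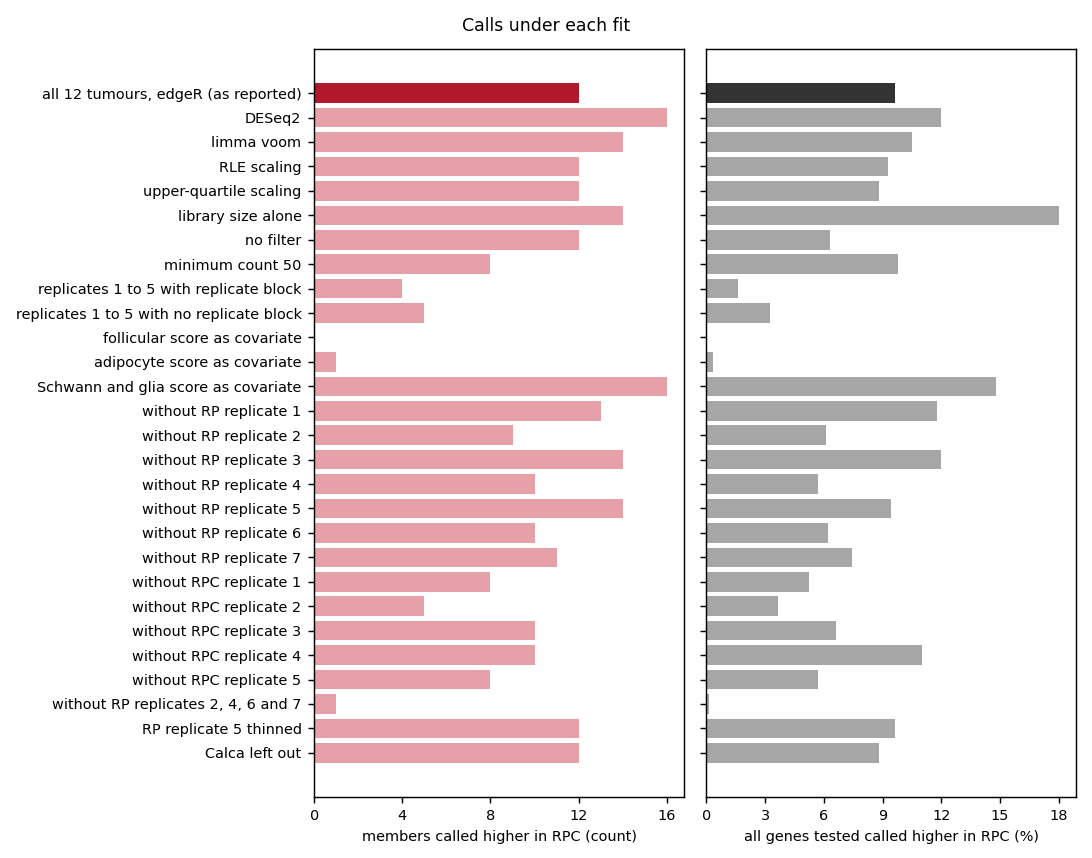
Number of adhesion genes called higher in RPC tumours (left bars, count) and share of all genes tested called higher (right bars, percent) under each fit, with the fit to all 12 tumours at the top. Without RP replicates 2, 4, 6 and 7 the bars stand at 1 gene and 0.153%.

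Further genes of the pathway were taken from 3 lists by role. Of 57 other synaptic adhesion genes 44 were tested, and 5 were called higher (11.4%) and 2 lower (4.55%). Over all genes tested these shares were 9.64% and 8.61%. The median log2 fold change of the list was 0.26. Lrrc4, a postsynaptic ligand of netrin-G, was at 1.69 to 5.29 CPM in RPC-labelled and 0.487 to 0.984 CPM in RP-labelled tumours (log2 fold change 1.89 ± 0.31 SE; edgeR adjusted p = 0.00427). Cbln4, a secreted cerebellin that bridges neurexins to postsynaptic receptors, was at 1.16 to 5.85 CPM in RPC-labelled and 0 to 0.347 CPM in RP-labelled tumours (4.0 ± 0.67 SE on the log2 scale; adjusted p = 0.00458), a size that rests on RP-labelled values near the floor. Cntnap5b, a paralogue of the contactin-associated proteins above, rose 4.48-fold (adjusted p = 0.00978). Kirrel3 and Cntnap4 also rose, by 4.18-fold and 2.59-fold, and are named after their values were seen. Elfn1, a postsynaptic organiser of interneuron synapses, fell, at a mean of 4.37 ± 2.34 CPM over 5 RPC-labelled and 13.1 ± 2.75 CPM over 7 RP-labelled tumours (± SD) (log2 fold change -1.59 ± 0.32 SE; adjusted p = 0.00931). Tenm3, a teneurin that matches synaptic partners, fell as well, at 0.183 to 6.04 CPM in RPC-labelled and 8.43 to 17.2 CPM in RP-labelled tumours (-1.96 ± 0.53 SE on the log2 scale; adjusted p = 0.0259).

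Of 19 other protocadherins and type II cadherins 14 were tested. Cdh24 (2.35-fold, edgeR adjusted p = 0.00872) and Cdh22 (2.63-fold, edgeR adjusted p = 0.0101) rose, which is 14.3% of those tested, and 0 fell. The median log2 fold change was 0.49 over the list. Cdh22 was at 46.2 to 105.9 CPM in RPC-labelled and 17.1 to 49.2 CPM in RP-labelled tumours, overlapping through RP-labelled replicate 3. Of 26 cytoplasmic partners and scaffolds 25 were tested, and 7 rose (28%) and 1 fell (4%), with a median of 0.26. Dlgap3, a scaffold beneath excitatory synapses, was at 58.9 to 99.2 CPM in RPC-labelled and 21.2 to 42.7 CPM in RP-labelled tumours (2.49-fold; edgeR adjusted p = 0.00164). Ank2, the ankyrin that ties L1-family proteins to the cytoskeleton, rose 1.91-fold (adjusted p = 0.00935), Lin7a and Apba1, of a presynaptic complex with Cask, rose 3.43-fold and 1.56-fold (adjusted p = 0.0147 and 0.0207), and the scaffold gene Dlgap1 rose 3.77-fold (adjusted p = 0.0207). Shank3 and Homer1 made up the 7. Fgfr1, a receptor that NCAM and L1CAM bind, fell to 69.3 ± 11.3 CPM (SD, n = 5) in RPC-labelled tumours, against 94.1 ± 14.4 CPM (SD, n = 7) in RP-labelled tumours (adjusted p = 0.0347), and is named after its value was seen, as are Shank3 and Homer1. Over the 3 lists 14 of 83 tested genes were called higher (16.9%) and 3 lower, where 9.64% and 8.61% of all genes were. Without RP-labelled replicates 2, 4, 6 and 7, or with the adipocyte or follicular score as a covariate, 0 of these lists' genes were called higher and 0 lower.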

How the data were processed

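Polyadenylated RNA of 12 tumours was sequenced. Reads went through bcl2fastq 1.8.2, TopHat2 2.0.12 and HTSeq 0.6.1 with the build mm9, per the submitters' processing notes. Neither annotation nor strand setting is stated, so antisense or overlapping genes cannot be separated. Whole-number counts for each gene symbol, unnormalized, are what the authors deposited, in 1 table per tumour. The 5 summary rows were left out, of which reads in no gene made up 13.1% to 17.6% and reads placed more than once 10.9% to 18.5% of a table.

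Genes were kept by filterByExpr (minimum count 10), scaled by TMM and tested with edgeR 4.0.16 (robust quasi-likelihood, R 4.3.3) over all genes without covariates. SE is the size of the log2 fold change divided by the square root of F. Levels per kb use exon lengths of GENCODE M21. Alternatives used DESeq2 1.42.0 and limma 3.58.1. The test was checked on simulated counts. Replicate libraries all differed beyond counting noise (chi-square of at least 25.6 per degree of freedom). The labels do not say whether each tumour had its own mouse; a p-value reflects only how these tumours vary, and floors cover counting error alone.

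The members, lists and tests were chosen with earlier results of these data known. Named were all 34 genes, up to 5 called genes of each pathway list by smallest p, and leading markers. Gfra1, Stmn2, Dbh, Nefh, Rbfox3 and Isl1 are not among the leading markers of their lists and are named after their values were seen. Older symbols were used for 10 listed genes (Lphn1 to Lphn3 and Odz1 to Odz4 among them). The call of 1 marker gene is not reported here.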

Additional observations from a re-analysis of the deposited data

Results flagged for a closer look

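Across 68 pairs of a gene and a group, 8 had a tumour far from the rest of its group by Dixon's test on log2 CPM, where chance flags about 1 in 20. Among RPC-labelled tumours, Cntn1 stood at 54.4 CPM in replicate 5 (next highest 18.5 CPM) and Cntnap2 at 8.97 CPM in replicate 4 (next 3.53 CPM). Nrxn3 was lowest in replicate 1, at 1.83 CPM (next 3.54 CPM), Cadm1 in replicate 2, at 219 CPM (next 335 CPM), and Opcml in replicate 1, at 0.189 CPM, which is the level of 3 counts. Among RP-labelled tumours, Ntm stood at 1.36 CPM in replicate 5 (next 0.174 CPM), Pcdh9 at 9.47 CPM in replicate 3 (next 2.92 CPM) and Ncam2 at 0 CPM in replicate 3 (next 0.463 CPM).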

How the results depend on the processing

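The log2 fold changes of the 12 called genes kept their sign in all 27 other fits that tested them, while their calls depended on the tumours and covariates. Nlgn3 was called in each fit but the one with the follicular score. The count of 12 was unchanged with RLE or upper-quartile scaling, without a filter, with RP-labelled replicate 5 thinned and with Calca left out. It was 16 with DESeq2, which replaced a count of RP-labelled replicate 5 in 3 of them, 14 with limma voom, 14 with library size alone and 8 with a minimum count of 50. Leaving out 1 tumour gave 5 to 14 members higher and 0 lower, 9 to 19 other pathway genes higher and 1 to 4 lower, and 1074 to 3510 genes in all, against 12, 0, 14, 3 and 2736. Library size alone put the median log2 fold change of all genes at 0.18, against -0.02 with TMM, and the calls at 2691 higher and 757 lower, against 1445 and 1291.

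Replicates 1 to 5 of both groups gave 4 members higher, 7 other pathway genes higher, 1 lower and 463 genes with the replicate block, and 5, 9, 1 and 868 without it. As a check of pairing, same-numbered tumours deviated from their group means with correlations of -0.165 to 0.208, and not every tumour matched its own number best, so the numbers were not read as pairs. Counts of members higher, other pathway genes higher and lower, and all genes were 0, 0, 0 and 4 with the follicular score, 1, 0, 0 and 97 with the adipocyte score, and 1, 0, 0 and 40 without RP-labelled replicates 2, 4, 6 and 7. With the Schwann and glial score 4281 genes were called. The drop in the number of genes called holds for all genes, and its cause was not tested.

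Uncalled genes changed sign in some fits. With the follicular score the log2 fold changes were -0.25 (Nfasc), -0.22 (Nrxn2), -0.10 (Nlgn2), -0.20 (Cntn2), -0.10 (Cadm3), 0.60 (Lsamp), -0.65 (Sdk2), -0.16 (Pcdh9) and 0.67 (Lrrtm1). With the adipocyte score they were -0.23 (Nfasc), -0.17 (Nrxn2), -0.02 (Nlgn2), -0.21 (Cadm3) and -0.30 (Sdk2). Without the 4 RP-labelled tumours they were -0.13 (Nfasc), -0.11 (Nrxn2), -0.17 (Cadm3) and -0.18 (Sdk2). Cadm3 was at -0.06 with the block and -0.04 without it, and Cntnap2 at -0.17 without RPC-labelled replicate 4, in a range up to 0.43 over the fits without 1 tumour. The fits that left out 4 tumours, thinned a library or left out Calca were chosen after seeing the data. Depth limits what can be said of Cdh10, Opcml, Ntm, Lrrtm2 and Slitrk1.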
